A study of Mus musculus with 8 samples.

Results

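The Myc and Mxd network is a group of small transcription factors of which 9 genes, Myc, Mycn, Max, Mxd1, Mxd3, Mxd4, Mxi1, Mnt and Mlx, were followed here in mouse satellite cells, the stem cells that lie beside muscle fibres and rebuild them. Its probes were every non-control array probe whose printed gene name was one of these symbols. This gave 11 probes for 9 genes, out of 55681 probes and 21245 named genes on the array. Satellite cells were sorted by flow cytometry as positive for integrin alpha 7 and negative for CD31, CD45, CD11b and Sca1. The injured group was 4 samples taken 3 days after cardiotoxin, a venom component that lyses fibres, and the basal group was 4 samples from muscle in homeostasis. All mice of both groups were labelled male C57BL/6 aged 3 months, with no transgene or mutation named. Each sample was called a biological replicate and put on its own 1-colour Agilent array. The labels do not say which muscles were taken or whether animals were pooled, so p-values measure the spread between these samples.

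MYC and MYCN activate genes of growth and division only as partners of MAX, with which they bind the DNA sequence CACGTG, called the E-box. MXD1, MXI1, MXD3, MXD4 and MNT compete for MAX at the same sequence and bring the SIN3 histone deacetylase complex, which represses. MLX is a related partner that binds some MXD proteins and MNT, and also the glucose-responsive factors MLXIP and MLXIPL. In many cell types Myc is known as an immediate early gene with a short-lived transcript and protein, and several Mxd genes are known for higher transcript in cells that leave the cell cycle, with Mxd3 known instead for expression during S phase.

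The E-box itself was searched for in the promoters of the network, since its factors are known to bind this sequence. Binding at these promoters was not measured. The promoter was the 300 bases from 250 before to 50 after each RefSeq gene start (build GRCm38.p6). CACGTG is its own reverse complement, so 1 search covered both strands. It was present in the promoters of 4 of the 8 members that had an entry, and in those of 2187 of 27025 genes of the table, or 8.09%. The 4 members were Max, the partner of all MYC proteins, the repressors Mxd4 and Mnt, and Mlx. Their RefSeq stretches around the motif are shown 5′ to 3′ on the strand of the gene, with the E-box in capitals. They lie at chr12:76962229-76962311 (minus strand) for Max, chr5:34187864-34187960 (minus) for Mxd4, chr11:74830741-74830866 (plus) for Mnt and chr11:101087190-101087309 (plus) for Mlx.
Max promoter: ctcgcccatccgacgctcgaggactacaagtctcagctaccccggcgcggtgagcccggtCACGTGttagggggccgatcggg
Mxd4 promoter: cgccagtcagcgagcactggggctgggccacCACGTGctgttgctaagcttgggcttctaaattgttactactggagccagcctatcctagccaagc
Mnt promoter: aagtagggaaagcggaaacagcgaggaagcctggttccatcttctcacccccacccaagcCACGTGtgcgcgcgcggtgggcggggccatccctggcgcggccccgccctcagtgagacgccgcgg
Mlx promoter: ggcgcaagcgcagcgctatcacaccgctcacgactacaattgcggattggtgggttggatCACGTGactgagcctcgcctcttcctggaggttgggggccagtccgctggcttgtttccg
The first base of the motif lay at position -3 from the start in Max, at -40 in Mlx, at -123 in Mnt and at -219 in Mxd4. The match is a description of these letters and not a binding site.

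Each array held 59305 non-control spots, of which 50.1% to 56.7% were well above background, and no spot was saturated. Signals are given on a log2 scale relative to the 75th percentile of the array, so that 0 is the signal of a fairly bright spot, and levels of different probes are not compared. A probe was tested with limma where 3 or 4 arrays of a group rated it well above background, and called where its adjusted p was under 0.05. Of 31315 probes tested, 17805 or 56.9% were called. By the brightest probe of each gene, 4714 of 13434 genes were higher in injured samples (35.1%) and 3278 lower (24.4%), so calls made up 59.5% of genes. Higher genes were 59.0% of the calls, and 81.6% in the authors' deposited table of normalized values, used as an alternative. The median log2 difference over all genes was 0.17 and the groups did not overlap for 57.2% of them. All injured arrays lay on 1 slide and all basal arrays on the other, so slide and injury cannot be told apart. Xist, an RNA of female cells, was at 1.72, 6.37, 6.55 and 6.57 on injured arrays 1 to 4 and at 3.85, 2.15, -1.12 and -4.97 on basal arrays 1 to 4. The Y-linked genes Ddx3y, Eif2s3y, Kdm5d and Uty were above background on injured 1 alone among the injured arrays. All mice were labelled male. The Xist signal went against that label on injured 2, 3 and 4, which had no Y-linked gene above background. It did so also on injured 1, on basal 1 and 2 and, more weakly, on basal 3, where Xist was still above background. Sex and injury therefore cannot be told apart. Between samples of sorted cells, fewer cells of a type and less RNA per cell cannot be told apart.

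Of 8 satellite cell markers, 5 were lower after injury, 2 higher and 1 not called. The lower share was 62.5% against 24.4% of all genes, and the higher share 25% against 35.1%. Pax7, the transcription factor of satellite cells, was lower in injured samples by a log2 difference of -2.95 ± 0.21 (SE with n = 4 per group throughout; adjusted p = 2.1e-05). Itga7, the integrin used for the sort, rose by 1.13 ± 0.16 (adjusted p = 4.3e-04), Myod1, the myogenic factor of activated cells, rose by 0.77 ± 0.13 (adjusted p = 0.0011), and Cdh15, M-cadherin, differed by 0.12 ± 0.20 and was not called. The chemokine receptor Cxcr4 (-2.12 ± 0.13; adjusted p = 1.2e-05), the proteoglycan Sdc4 (-1.86 ± 0.28; adjusted p = 7.2e-04) and the adhesion molecule Vcam1 (-0.75 ± 0.16; adjusted p = 0.0035) were lower. Calcr, the calcitonin receptor known from satellite cells at rest, had a bound of at least 32.9-fold lower in injured samples (adjusted p = 1.0e-06), since its probe was not well above background on any injured array. Such bounds set the mean of the brighter group against the lowest signal counted as above background in the other. Of the sort's excluded markers, Ptprc, which encodes CD45, differed by -0.18 ± 0.38, Itgam, which encodes CD11b, by 0.10 ± 0.12, and Pecam1, which encodes CD31, by -2.38 ± 1.43. None of these 3 was called, and the probe of Ly6a, which encodes Sca1, did not pass the filter. Ptprc and Itgam were nonetheless above background on all 8 arrays. The Itgam probe, the brightest of 3, was at 8.83 to 9.09 on injured and 8.74 to 8.95 on basal arrays. These values therefore do not show that the sort excluded such cells, and what the Itgam probe reads was not tested.

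Of the 9 members, 7 had a probe that passed the filter on dim signal. Among those 7, Mxd1 and Mxd4 were lower, Mxd3 was higher, and Myc, Max, Mnt and Mlx were not called. Calls thus made up 42.9% of the members tested against 59.5% of all genes, and the groups did not overlap for 3 of the 7, against 57.2% of all genes. Their median log2 difference was -0.32. Mycn and Mxi1 were not well above background on any of the 8 arrays and were not tested.

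**Figure D1:**
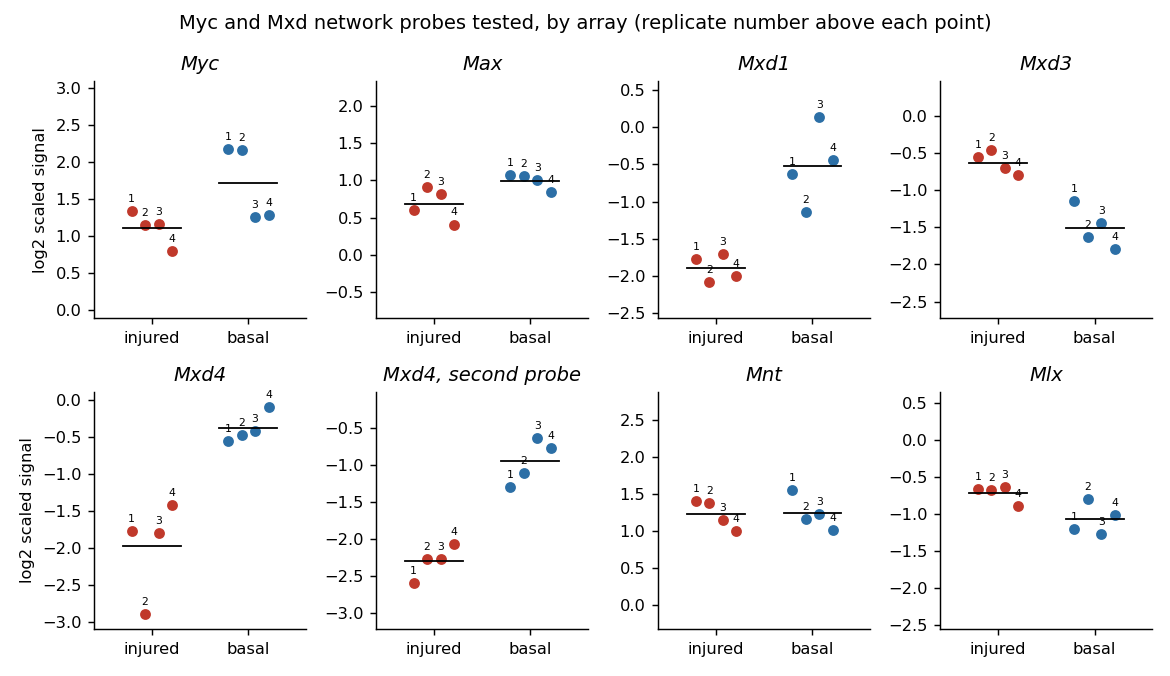
Log2 signal relative to the array's 75th percentile (vertical axis) of the member probes on each array, with injured samples left of basal samples. Points are arrays and bars are group means, and each panel has its own range of the same height. The injured arrays sit below every basal array for Mxd1 and Mxd4 and above every basal array for Mxd3, while the groups overlap for Myc, Max, Mnt and Mlx. For Mxd3 the authors' deposited table has the opposite sign.

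Myc, the activating member best known from growing cells, was read by 1 probe spotted 2 times on each array (mm9, chr15:61821417-61821476, plus strand). The probe crosses the end of the coding sequence, and its stop codon is shown in capitals.
Myc probe: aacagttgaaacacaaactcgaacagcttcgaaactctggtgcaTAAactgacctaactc
Its log2 signal was 1.34, 1.16, 1.16 and 0.81 on injured arrays 1 to 4, against 2.18, 2.16, 1.27 and 1.29 on basal arrays 1 to 4. The groups overlapped, because injured 1 was above basal 3 and basal 4, and the basal arrays fell into a higher pair, basal 1 and 2, and a lower pair, basal 3 and 4. The 2 spots of the probe differed by 0.0064 to 0.191 within an array, a measure of spot noise alone. The means were 1.11 ± 0.22 in injured and 1.73 ± 0.52 in basal samples (SD, n = 4 each). The difference of -0.61 ± 0.26 was not called (SE; adjusted p = 0.0713), with a 95% interval from -1.20 to -0.02 that does not adjust for the number of probes. It was called under several other settings, among them quantile normalization, where it was -0.75 (adjusted p = 0.0338), and in the authors' deposited table it had the opposite sign, 0.047, and was not called (adjusted p = 0.933). Without basal 3 it was also called (adjusted p = 0.0359), as it was without basal 4 (adjusted p = 0.0393).

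Without basal 1 and 2, the difference in Myc was -0.16 (adjusted p = 0.447). The same arrays were high in endothelial signal, and stood above basal 3 and 4 in Xist, at 3.85 and 2.15 against -1.12 and -4.97. Pecam1 was at -3.11, -2.06, -1.89 and -1.82 on injured arrays 1 to 4, against 3.20, 2.87, -2.20 and -3.22 on basal arrays 1 to 4. The summed signal of 10 endothelial markers was 3.30 to 3.60 on injured arrays on the log2 scale, and 5.48, 5.17, 4.81 and 4.53 on basal arrays 1 to 4. The part of endothelial RNA and of sex in the Myc values was not tested.

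Mycn, the relative of Myc known from embryonic tissue, had signals of -4.87 to -4.22 on injured arrays and -4.95 to -3.91 on basal arrays, all in the range of background (mm9, chr12:12943193-12943252, minus strand). Mycl, another relative that lies outside the 9 members and carries its older name Mycl1 on the array, was detected in injured samples alone. Its signal was -2.80, -2.10, -2.47 and -2.15 on injured arrays, well above background on all 4, against -4.61, -4.93, -5.01 and -4.72 on basal arrays, where it was above background on none. Mycl was therefore at least 1.74-fold higher in injured samples (adjusted p = 2.9e-05).

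Max, the obligate partner, gave 0.60, 0.91, 0.81 and 0.41 on injured arrays, against 1.08, 1.07, 1.01 and 0.84 on basal arrays (mm9, chr12:78038272-78038331, minus strand). Only injured 2 reached above the lowest basal array, basal 4. The means of 0.68 ± 0.23 in injured and 1.00 ± 0.11 in basal samples (SD, n = 4 each) differed by -0.32 ± 0.15 (SE; adjusted p = 0.0961; 95% interval -0.65 to 0.02), which was not called. With quantile normalization the difference was -0.40 and was called (adjusted p = 0.0374), and in the authors' deposited table it had the opposite sign, 0.98, and was not called (adjusted p = 0.151). Mga, a large scaffold that also pairs with MAX and belongs to a repressive Polycomb complex, fell by 0.75 ± 0.18 (adjusted p = 0.0065). All its injured arrays were below its basal arrays.

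The MXD repressors moved in both directions. Mxd1, whose product is known to compete with MYC for MAX in differentiating cells, had signals of -1.78, -2.09, -1.71 and -2.01 on injured arrays, against -0.63, -1.14, 0.14 and -0.45 on basal arrays. Every injured array was below every basal array, and the basal arrays were the more spread. Mxd1 fell by 1.37 ± 0.26 (SE, n = 4 per group; adjusted p = 0.0020; 95% interval -1.96 to -0.79), to 38.6% of the basal level. Its probe lies at chr6:86599053-86599112 (mm9, minus strand). A dimmer Mxd1 probe at chr6:86597190-86597249 was above background on 1 injured and 2 basal arrays and did not pass the filter.

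Mxd4, a repressor known from quiescent and differentiating cells, was read by 2 probes whose targets overlap, at chr5:34519323-34519382 and chr5:34519276-34519335 (mm9, minus strand), so they are not independent. The brighter one had signals of -1.77, -2.89, -1.80 and -1.42 on injured arrays, against -0.55, -0.47, -0.42 and -0.09 on basal arrays. The groups did not overlap, and injured 2 was the lowest array and not well above background. Mxd4 fell by 1.58 ± 0.30 (adjusted p = 0.0022; 95% interval -2.26 to -0.90), to 33.4% of the basal level. The second probe had -2.59, -2.27, -2.27 and -2.06 on injured arrays, against -1.30, -1.10, -0.63 and -0.77 on basal arrays, and fell by 1.35 ± 0.19 (adjusted p = 4.6e-04).

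Mxd3, the member known for transcript in dividing cells, went the other way. Its signals were -0.55, -0.46, -0.69 and -0.79 on injured arrays, against -1.14, -1.63, -1.44 and -1.79 on basal arrays (mm9, chr13:55427000-55427059, minus strand). All injured arrays were above all basal arrays, within narrow groups. Mxd3 rose by 0.88 ± 0.17 (adjusted p = 0.0022; 95% interval 0.50 to 1.26), or 1.84-fold, although in the authors' deposited table it had the opposite sign, -1.21, and was not called (adjusted p = 0.395). The falls of Mxd1 and Mxd4 kept their sign in the authors' deposited table, at -2.30 (adjusted p = 0.0771) and -0.81 (adjusted p = 0.0891), and were not called there. The second Mxd4 probe was at -0.02 in that table (adjusted p = 0.981), so its fall was not seen there. With a background correction that adds an offset of 50, which shrinks the differences of dim probes, Mxd1 differed by -0.61, Mxd4 by -0.78 and Mxd3 by 0.39, and all remained called. With injured 1 as the only injured array, which is the one with Y-linked signal, Mxd1 differed by -1.26 (adjusted p = 0.154), Mxd3 by 0.95 (adjusted p = 0.120) and Mxd4 by -1.38 (adjusted p = 0.0449).

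Mxi1, the other MXD repressor, gave background signal of -5.01 to -3.78 on injured and -5.20 to -4.06 on basal arrays (mm9, chr19:53450238-53450297, plus strand). Mnt, a MAX-binding repressor known to be expressed in most tissues, had 1.40, 1.38, 1.15 and 1.00 on injured arrays, against 1.55, 1.15, 1.22 and 1.02 on basal arrays (mm9, chr11:74658915-74658974, plus strand). The groups covered almost the same range, and the difference was 0.00 ± 0.16 (adjusted p = 0.995). Its 95% interval, from -0.37 to 0.36, does not include a change of the size seen for Mxd1, Mxd3 or Mxd4.

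**Figure D2:**
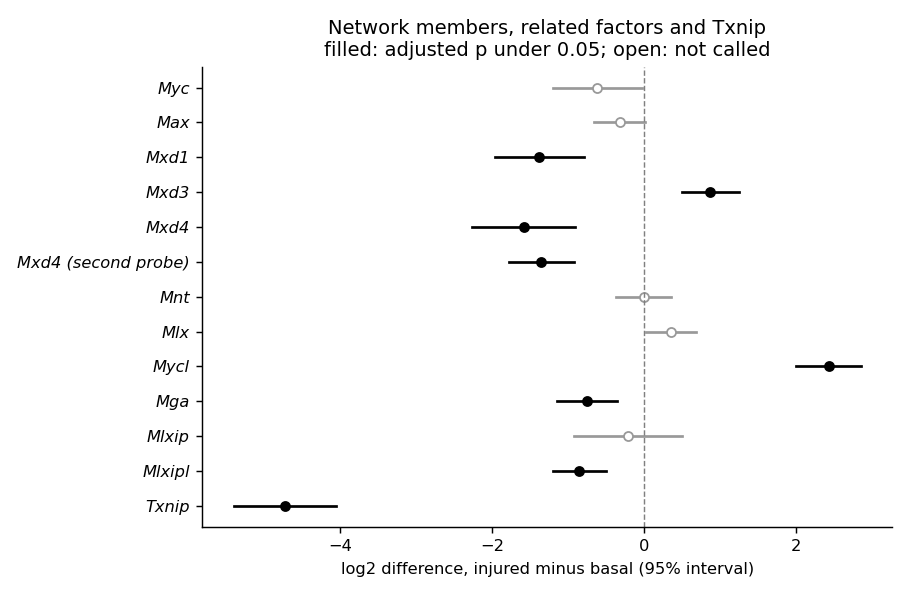
Injured minus basal log2 difference (horizontal axis) of each tested member probe and of the related genes Mycl, Mga, Mlxip, Mlxipl and Txnip. Points are differences, filled where called, and bars are 95% intervals; the point of Mycl is a fitted value against a group at background, not a bound. Mxd1 at -1.37 and Mxd4 at -1.58 lie to the left of 0 and Mxd3 at 0.88 to the right, a sign that is opposite for Mxd3 in the authors' deposited table, and the interval of Mnt is centred on 0.

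Mlx, the partner on the glucose-responsive side, was read by a probe that ends just past its stop codon (mm9, chr11:100952426-100952485, plus strand), shown with the stop codon in capitals.
Mlx probe: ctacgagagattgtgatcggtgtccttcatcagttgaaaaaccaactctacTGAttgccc
Its signals were -0.66, -0.67, -0.63 and -0.89 on injured arrays, against -1.20, -0.80, -1.26 and -1.01 on basal arrays. Injured 1 to 3 were above all basal arrays, and injured 4 lay below basal 2. The difference of 0.36 ± 0.14 was not called (adjusted p = 0.0621; 95% interval 0.03 to 0.68). Without basal 2 it was 0.44 and called (adjusted p = 0.0286), and with quantile normalization 0.39 and called (adjusted p = 0.0466). In the authors' deposited table it was 1.28 and not called (adjusted p = 0.0655).

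The partners of MLX were measured alongside. Mlxip, also called MondoA, differed by -0.21 ± 0.31 and was not called (adjusted p = 0.587). Mlxipl, which encodes ChREBP, a glucose-responsive activator known from liver, fell by 0.85 ± 0.16 (adjusted p = 0.0019). Its signals were 5.64, 5.61, 5.36 and 5.50 on injured arrays, below the 6.02, 6.40, 6.54 and 6.54 of the basal arrays. Txnip, the classical target of the MLX and MondoA pair and an inhibitor of glucose uptake, had 0.52, 0.10, 0.41 and 0.71 on injured arrays, against 4.65, 4.76, 5.26 and 5.99 on basal arrays. The groups lay far apart, and Txnip was 26.5-fold lower in injured samples, a log2 difference of -4.73 ± 0.30 (adjusted p = 1.2e-05). The other targets looked for, Arrdc4 and Pklr, were not above background on any array.

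A list of genes of the SIN3 complex, through which MXD and MNT proteins repress, had a larger share of higher genes than the array as a whole. Of 16 listed genes tested, 9 were higher, 1 lower and 6 not called, with a median log2 difference of 0.78 against 0.17 over all genes. Those not called include Ncor1, a corepressor gene that was listed with the complex and is not one of its subunits. The higher share was 56.2% against 35.1% of all genes, and 62.5% were called against 59.5%. Sap30, a subunit that stabilises the complex, rose most among them. It had 1.97, 2.13, 2.18 and 1.79 on injured arrays, against -0.14, -1.35, -2.23 and -2.18 on basal arrays, a rise of 3.49 ± 0.43 (adjusted p = 2.5e-04). The deacetylase Hdac2 rose by 1.33 ± 0.21 (adjusted p = 9.0e-04), and the subunits Suds3 and Brms1 by 1.30 ± 0.30 (adjusted p = 0.0057) and 1.15 ± 0.13 (adjusted p = 1.6e-04). Arid4b, a subunit with a chromatin-reading domain, was the lower one, by a bound of 1.94-fold (adjusted p = 0.0142), with no injured array above background. It was above background on 3 of the 4 basal arrays, and the bound takes in the remaining one too. The groups overlapped, with basal 1 at -3.32 and injured 2 at -3.28.

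Of 15 genes for cofactors of MYC, 5 were higher, 3 lower and 7 not called, with a median of 0.21 against 0.17 over all genes. The higher share of 33.3% was near the 35.1% of all genes, and the called share was 53.3% against 59.5%, so the list as a whole was close to the background. The higher ones named here were subunits of chromatin-remodelling and histone-modifying complexes. Actl6a rose by 2.12 ± 0.21 (adjusted p = 8.9e-05), Ruvbl2 by 1.71 ± 0.21 (adjusted p = 2.2e-04), Ruvbl1 by 1.55 ± 0.23 (adjusted p = 7.0e-04) and Wdr5 by 1.35 ± 0.23 (adjusted p = 0.0012). The lower ones were Zbtb17, which encodes MIZ1, the factor through which MYC represses (-0.67 ± 0.22; adjusted p = 0.0305), the acetyltransferase Crebbp (-0.42 ± 0.11; adjusted p = 0.0111) and the elongation factor subunit Ccnt1 (-0.34 ± 0.12; adjusted p = 0.0389). With the replicate number as a block, 1 gene was lower in place of 3.

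MYC protein is controlled largely by its turnover, which transcripts do not measure. Of 15 genes tested that act on it, 7 were higher, 2 lower and 6 not called, with a median of 0.28 against 0.17 over all genes. The higher share was 46.7% against 35.1% and the lower share 13.3% against 24.4%, while calls in all were close to the background. The list mixes genes that stabilise MYC with genes that promote its degradation, so these shares have no single direction for the protein. The 7 include Gsk3b, a kinase that marks MYC for degradation, whose direction is uncertain because its brightest probe was called higher (0.50) and another lower (-0.53). Aurka, a mitotic kinase that also stabilises MYCN, had 2.95, 3.22, 3.06 and 2.66 on injured arrays, against 1.75, -0.24, -1.86 and -1.41 on basal arrays. Basal 1 stood well above the other basal arrays. Aurka rose by 3.41 ± 0.69 (adjusted p = 0.0031). Skp2, a ubiquitin ligase of MYC and of the cell cycle inhibitor p27, rose by 1.76 ± 0.42 (adjusted p = 0.0071), and Set, an inhibitor of phosphatase 2A, by 1.60 ± 0.26 (adjusted p = 9.9e-04). The lower ones were Ppp2r5a, a subunit that directs phosphatase 2A to MYC (-0.87 ± 0.15; adjusted p = 0.0015), and the deubiquitinase Usp36 (-0.62 ± 0.13; adjusted p = 0.0035), whose other probes differed by 0.27 and 0.0087 and were not called. Fbxw7, the ligase of phosphorylated MYC, named after its values were seen, differed by 0.00 ± 0.22 (adjusted p = 0.991).

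Textbook targets that MYC activates were nearly all higher after injury, while the Myc probe was not. Of 47 tested, 42 were higher, none lower (nor at an unadjusted p under 0.05) and 5 not called by limma. The groups did not overlap for 42 of the 47, where 57.2% of all genes did not overlap. Their share of higher genes was thus 89.4%, against 35.1% of all genes, and their median log2 difference 1.82, against 0.17. These genes make ribosomes, nucleotides and glycolytic enzymes or drive division, and other factors act on them as well. Hmga1, a chromatin architectural protein, rose by 3.96 ± 1.00 (adjusted p = 0.0092), Tfrc, the transferrin receptor, by 3.93 ± 0.46 (adjusted p = 1.9e-04), Cdca7, a division-linked chromatin factor, by 3.66 ± 0.61 (adjusted p = 0.0011), and the glycolytic enzyme Eno1 by 3.04 ± 0.57 (adjusted p = 0.0021). The other Hmga1 probes rose by 4.00 and by 0.55, both called, so the size of its rise depends on the probe. The brightest Hmga1 probe was at 5.72, 3.74, 1.49 and 0.42 on basal arrays 1 to 4. Cdca7 was above background on only 1 basal array. The 5 not called, named after their values were seen, were Odc1, the polyamine enzyme and a classical MYC target (0.63 ± 0.25; adjusted p = 0.0555), Ubtf (0.04 ± 0.12), Ccnd2 (-0.40 ± 0.28), Tert (0.28 ± 0.30) and Id2 (0.75 ± 0.34). CACGTG was in the promoters of 14 of the 43 activated targets with an entry, or 32.6%, against 8.09% of all genes. A gene counted where any of its promoters matched, and among genes with exactly 1 promoter the share was 7.12%. This list holds known MYC targets and, like the others, was chosen with earlier results of these data known. Neither this share nor the 89.4% is therefore an independent test.

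Genes that MYC is known to repress were mostly lower after injury. Of 15 tested, 11 were lower, 3 higher and 1, Cdkn2c, not called, which is 73.3% lower against 24.4% of all genes, with a median of -1.60. Pdgfrb, a growth factor receptor that is also a marker of pericytes, was lower by at least 3.78-fold (adjusted p = 3.5e-05), with no injured array above background. Ndrg2, a differentiation-linked gene, fell by 3.47 ± 0.29 (adjusted p = 4.1e-05), Gas1, a growth arrest gene, by 3.28 ± 0.25 (adjusted p = 2.8e-05), and the stress gene Gadd45b by 2.19 ± 0.30 (adjusted p = 4.0e-04). The 3 higher genes were Thbs1, a matrix protein (2.81 ± 0.59; adjusted p = 0.0038), and the cell cycle inhibitors Cdkn2b (1.53 ± 0.35; adjusted p = 0.0060) and Cdkn1a (1.03 ± 0.33; adjusted p = 0.0273). Another Cdkn1a probe was called lower, by -1.13, so its direction is uncertain. The other Gas1 probes differed by 0.09, not called, and by -0.62, called.

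**Figure D3:**
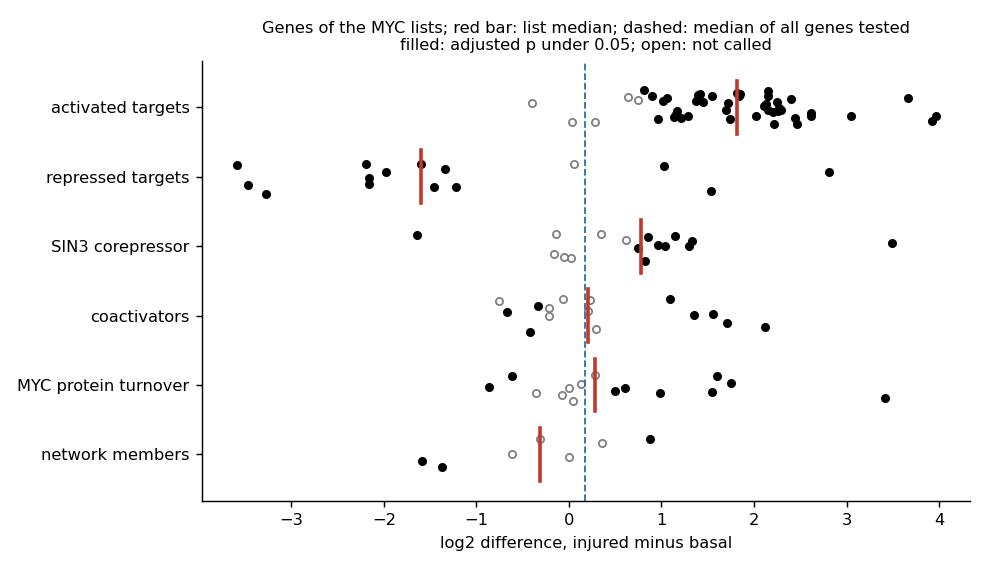
Injured minus basal log2 difference (horizontal axis) of each tested gene of the network and of 5 related gene lists (rows). Points are genes, filled where the adjusted p was under 0.05 and open where not called, red bars are list medians and the dashed line is the median of all genes tested, 0.17. The activated targets lie mostly to the right, with a median of 1.82, the repressed targets mostly to the left, with a median of -1.60, and the network members on both sides, with Mxd3 on the left in the authors' deposited table.

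The median deviation of the activated targets from their mean over the 8 arrays was 1.03, 1.11, 0.87 and 0.64 on injured arrays 1 to 4, against -0.30, -0.68, -1.29 and -1.16 on basal arrays 1 to 4. For Myc it was -0.08, -0.26, -0.26 and -0.61 on injured arrays, against 0.76, 0.74, -0.15 and -0.13 on basal arrays. Injured 1 to 3 and basal 1 and 2 thus stood above the other arrays of their own group in both measures, while the group means lay the other way round in the 2 measures. For the repressed targets the median deviation was -0.96, -0.79, -0.80 and -0.89 on injured arrays, against 0.62, 1.09, 0.97 and 0.46 on basal arrays, with no overlap.

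**Figure D4:**
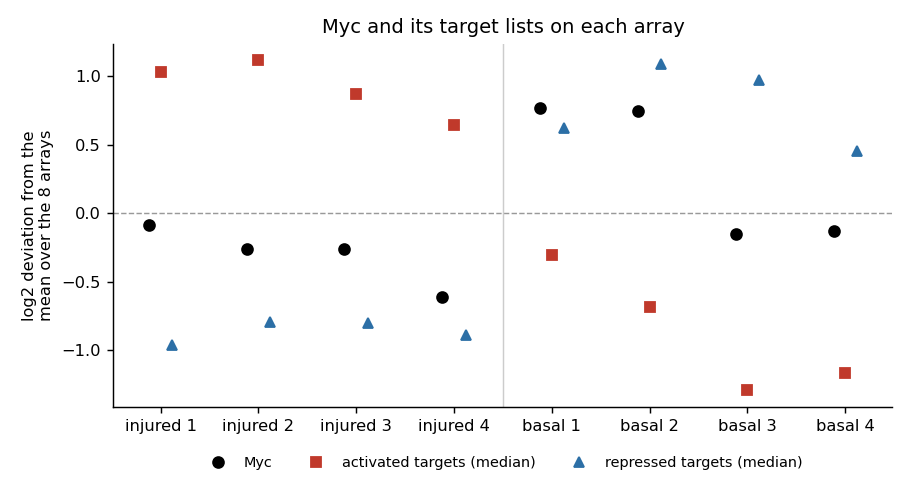
Log2 deviation from the mean over the 8 arrays (vertical axis) on each array (horizontal axis, injured left of basal) for Myc (circles), and the median deviation of the activated targets (squares) and of the repressed targets (triangles). Activated targets are at 0.64 to 1.11 on injured and -1.29 to -0.30 on basal arrays, while Myc is at -0.61 to -0.08 on injured and -0.15 to 0.76 on basal arrays.

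Several marker lists of other cell types differed between the groups, and their part in the MYC lists and in the Mxd genes was not tested. The markers need not be exclusive to their cell type, with Cd34 among the fibro-adipogenic ones and Des and Notch3 among the pericyte and smooth muscle ones. A change within satellite cells was not separated from a change in other cells. A summed signal mostly follows its brightest probes. For fibro-adipogenic cells 6 of 7 markers tested were lower (85.7%, against 24.4% of all genes) and none higher, even at an unadjusted p under 0.05. Their summed log2 signal was 3.27 to 3.57 on injured arrays against 6.26 to 6.92 on basal arrays. Their defining marker Pdgfra was not above background on any array. For pericytes and smooth muscle, with Pdgfrb among them, 6 of 10 were lower (60%, against 24.4% of all genes) and again none higher. Their sums were 6.01 to 6.54 on injured and 7.23 to 7.72 on basal arrays. For endothelium, 2 of 8 were lower and 1 higher, and the lower share of 25% was near the 24.4% of all genes. The endothelial sums were nonetheless lower after injury, at 3.30 to 3.60 on injured and 4.53 to 5.48 on basal arrays, with no overlap. The share of calls alone therefore does not show that endothelial signal was alike in the groups. Of 8 leukocyte markers tested, 2 were higher and 1 lower, so 37.5% were called against 59.5% of all genes. The leukocyte markers summed to 8.95 to 9.19 on injured and 8.89 to 9.08 on basal arrays. Most of that sum was the Itgam probe, at 8.83 to 9.09 on injured and 8.74 to 8.95 on basal arrays, so it says little of the other markers. Muscle fibre markers summed to 6.56 to 7.09 on injured and 5.42 to 5.69 on basal arrays. Of 5 tested, 2 were higher and 2 lower, or 40% each, against 35.1% and 24.4% of all genes. The satellite cell markers summed to 6.21 to 6.35 on injured and 6.80 to 7.19 on basal arrays.

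The genes whose pattern over the 8 arrays came nearest to that of Myc, by the root mean square of the log2 deviations between them, were Rsrc2 at 0.0921, Abhd2 at 0.126 and Tgif1 at 0.156. For Mxd4, the member with the largest difference, they were Acp6 at 0.203, Cdk3 at 0.230 and Zfyve1 at 0.243. These are likenesses over 8 arrays in 2 groups, so they rest on the same group difference and the same array order.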

How the data were processed

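Total RNA of 4 injured and 4 basal samples was measured on 1 Agilent array each. The deposited scanner files hold spot intensity from the authors' scans, and per the file headers version 10.7.3.1 of Agilent's Feature Extraction made them, with background subtracted and no normalization between arrays. The authors' deposited table holds 8 columns of log2 values (5.66 to 18.8), with a scale read from the values. Its columns correlated with the scanner values of their own arrays at r = 0.846 to 0.941 (injured) and 0.571 to 0.952 (basal). How it was made, centring included, is not given in the sources used here, and it served as an alternative only.

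The log2 processed signal minus each array's 75th percentile was used after 1119 outlier spots were left out, and spots of a probe were averaged. Probes were named through RefSeq by accession (26300), symbol (2044) or synonym (355), and 26982 had no name. For a gene with several probes the brightest one on average stood for it. limma 3.58.1 in R 4.3.3 (lmFit, eBayes; two-sided; 6 residual and 2.52 prior degrees of freedom) compared the groups, with Benjamini-Hochberg adjustment over 31315 probes. Without adjustment, 19398 probes had p under 0.05. Code was tested on simulated data. Members and lists were chosen with earlier results of these data known. Named were all members, the related MYC and MLX genes, and per list up to 4 called genes with the largest difference in the main direction and up to 3 in the other. A further such gene is not reported here. Signal over background and 4 arrays per group limit precision. Alternatives covered scaling, background correction, the filter, probe choice, limma options, the replicate block and left-out arrays. Same-numbered samples deviated together little or not at all (r -0.01 to 0.11), so the main fit did not pair them. Such low values cannot show that no samples were paired.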

Additional observations from a re-analysis of the deposited data

Results flagged for a closer look

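In 22 sets of a member probe and a group of 4 arrays, the gap of the highest or lowest array to its neighbour, as a share of the group's range, was set against Dixon's critical value for 4 values, and 2 sets exceeded it. Chance does so for about 1 in 20 such sets. For Mxi1 the share was 0.896 on injured arrays, where injured 4 was at -3.78 and the others at -5.01 to -4.89, all below the background limit. For Mlx it was 0.832 on injured arrays, where injured 4 was at -0.89 and the others at -0.67 to -0.63. Without injured 4 the Mlx difference was 0.41 (adjusted p = 0.0556) and was still not called.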

How the results depend on the processing

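The calls of Mxd1, Mxd3 and Mxd4 (its brighter probe) held with every array left out in turn (-1.58 to -1.15, 0.78 to 1.00 and -1.77 to -1.28) and in the other settings that tested them, except in the authors' table and, for Mxd1 and Mxd3, with injured 1 alone. The filter on all arrays left the brighter Mxd4 probe untested, and the mean over probes replaced it by the mean of both, also called (-1.47). Leaving out 1 array gave -0.76 to -0.46 for Myc, -0.075 to 0.10 for Mnt, 0.29 to 0.44 for Mlx, 1 to 2 members higher and 1 to 4 cofactors lower. Quantile normalization called Myc (-0.75), Max (-0.40) and Mlx (0.39), with 2 members higher and 4 lower. With normexp and quantile they were -0.59, -0.33 and 0.21, all called, again with 2 members higher and 4 lower and with 2 SIN3 genes lower. Median scaling called Myc (-0.69) and Max (-0.40), with 4 members lower. In the authors' table, the signs turned for Myc (0.047), Max (0.98), Mxd3 (-1.21) and Mnt (0.34), and Mxd1 (-2.30), Mxd4 (-0.81) and the second Mxd4 probe (-0.02) were not called. It had 5586 probes higher and 1539 lower, 2997 genes higher and 678 lower, 0 members called, no SIN3 (0) or turnover gene lower (0), 2 cofactors higher and 0 lower, and 6 repressed targets lower. The median of all genes was 0.48 there and 0.07 with normexp and quantile, against 0.17.

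Without a filter on dim probes 1 cofactor was lower. With probes above background on all arrays Mlx was called (0.36, adjusted p = 0.0491), with 2 members higher and 1 lower, 0 SIN3 genes lower and 1 repressed target higher. The mean of probes left 1 turnover gene lower. Array weights turned Mnt to 0.10. Without basal 1 and 2, Mnt was 0.12, Mlx was 0.42 and called, 2 members were higher and 2 SIN3 genes lower. With injured 1 alone, Mxd1 (-1.26) and Mxd3 (0.95) lost their calls and Mnt was 0.16. That setting had 1312 probes higher and 2114 lower, 631 genes higher and 922 lower, and 0 members higher and 1 lower. SIN3, cofactor and turnover genes had 1 higher and 0 lower each, activated targets 14 higher, and repressed targets 0 higher and 7 lower. The lone injured array was assumed to vary like the basal ones. With the replicate block, Myc was called (-0.61, adjusted p = 0.0432) and 1 cofactor was lower. A slide block was not run, since each slide holds 1 group. The cause of these changes was not tested.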
